A study of Mus musculus with 45 samples.

Results

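The genes of oxidative phosphorylation were followed through 45 RNA sequencing libraries of mouse microglia and brain tissue. They were taken by gene symbol from the mouse annotation: of 22028 protein-coding genes, 108 carried the symbol of a subunit of respiratory complexes I to IV or of ATP synthase (complex V), with pseudogenes left out. Of these, 86 were nuclear genes for subunits, with 36 in complex I, 4 in complex II, 9 in complex III, 20 in complex IV and 17 in complex V. Another 13 were subunit genes of the mitochondrial genome, with 7 in complex I, 1 in complex III, 3 in complex IV and 2 in complex V. The remaining 9 matched the symbol pattern without encoding a subunit. These were 8 complex I assembly factors (Ndufaf1 to Ndufaf8) and Atp5s, and they were counted apart.

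All mice were C57BL/6, and the labels name no transgene or deleted gene in any group. Slice microglia came from coronal brain slices of neonatal mice after 2 weeks in culture, and each sample pooled several slices. The slices received medium only (9 samples), the cytokine TNF at 50 ng/mL (11 samples) or the myeloid growth factor GM-CSF at 20 ng/mL (9 samples) for the last 24 h. Adult microglia were sorted from mice of 10 to 15 weeks, 24 h after PBS (4 samples) or after the bacterial endotoxin LPS at 1 mg/kg (4 samples). Whole brain tissue from mice of the same age range was collected 24 h after LPS at 1 mg/kg (4 samples) or from untreated mice (4 samples), so that the tissue controls, unlike the microglia controls, had received no injection. Titles of slice samples also carry a code, 1A, 1B, 2A or 2B, whose meaning the labels do not give. It was used as a block in the slice fits.

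Oxidative phosphorylation takes place at the inner mitochondrial membrane. Complexes I and II pass electrons from NADH and succinate to ubiquinone, complex III passes them to cytochrome c, and complex IV passes them to oxygen. Complexes I, III and IV pump protons, and complex V lets them flow back to make ATP. Nuclear subunits are translated in the cytosol and imported, whereas the mitochondrial subunits are transcribed and translated inside the organelle, so an assembled complex draws on both genomes. In macrophages, inflammatory stimuli are known to shift energy metabolism between glycolysis and respiration.

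Libraries held 5973364 to 9165485 counts for slice microglia, 11391577 to 14216034 for adult microglia and 8199881 to 10368603 for brain tissue. The summed level of 8 microglia markers was 11360 to 28554 CPM (read counts relative to each library total) in slice microglia, 41605 to 62294 CPM in adult microglia and 296 to 461 CPM in brain tissue. The sum of 8 neuron markers was 0.861 to 15.2 CPM in the sorted cells and 6046 to 6612 CPM in brain tissue. No library stood against its label, and no pair of replicates agreed within sampling noise. Nothing in the labels says whether slice samples came from separate litters, so p-values measure the spread between these samples. In bulk RNA, fewer cells of a type and less RNA per cell cannot be told apart.

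The sequence of the mitochondrial genes came first, because it separates the genes that had counts from those that had none. In all 29 slice libraries, mt-Nd3, mt-Nd4l, mt-Co2, mt-Co3, mt-Atp6 and mt-Atp8 were at 0, while mt-Nd1, mt-Nd2, mt-Nd4, mt-Nd5, mt-Nd6, mt-Cytb and mt-Co1 were counted in every table. A stretch of chromosome 1, minus strand, holds annotated copies of 7 of the 13 genes (GENCODE M21 on the mm10 build, all unprocessed pseudogenes). Among them are Gm28661 (chr1:24614885-24615565), a copy of mt-Co2, and Gm29216 (chr1:24615706-24616197), a copy of part of mt-Co1. The first 60 bases of mt-Co2 (chrM:7013-7696, plus strand) and of its copy are shown because they do not differ, so that a read from here carries nothing that tells the gene from the copy. Bases 1054 to 1113 of mt-Co1 (chrM:5328-6872, plus strand) are shown with the start of its copy because here they do differ. Capitals mark the bases that differ.
mt-Co2: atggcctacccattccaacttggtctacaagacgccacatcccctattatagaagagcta
Gm28661: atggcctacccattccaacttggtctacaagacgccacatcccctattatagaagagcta
mt-Co1: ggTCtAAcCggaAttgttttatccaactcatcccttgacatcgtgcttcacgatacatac
Gm29216: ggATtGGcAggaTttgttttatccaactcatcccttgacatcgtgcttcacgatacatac

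Along its whole length of 681 bases, Gm28661 was identical to mt-Co2. The copies Gm28437 of mt-Co3 (783 of 783 bases), Gm10925 of mt-Atp6 (678 of 678), Gm10222 of mt-Nd4l (294 of 294) and Gm28439 of mt-Nd4 (876 of 876, 63.6% of the gene) were identical as well. Gm28438 matched mt-Nd3 in 344 of 345 bases and differed by T3C, counted from the first base of the mitochondrial gene. Gm29216 matched mt-Co1 in 486 of 492 bases and covered 31.8% of it. Its 6 differences, T1056A, C1057T, A1059G, A1060G, C1062A and A1066T, all lie in the stretch shown.

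Slice reads were 75 bases long, so 75-base windows of each gene were looked for in the other annotated transcripts. The share found there is the least part of a gene that cannot be read without ambiguity. It was 99.9% for mt-Co3, 99.5% for mt-Co2 and mt-Atp6, 98.7% for mt-Nd4l and 97.8% for mt-Nd3, which are 5 of the 6 genes at 0. It was 61.5% for mt-Nd4, 39.8% for mt-Co1, 5.71% for mt-Nd2 and 1.66% for mt-Nd5, and 0% for mt-Nd1, mt-Nd6 and mt-Cytb, which are the genes with counts. The exception was mt-Atp8, which was at 0 in the slice libraries with 0% of its windows in another annotated transcript. That 0% does not show that its sequence is unique, because unannotated sequence was not searched. The gene (chrM:7766-7969) lies between mt-Co2 and mt-Atp6, whose copies Gm28661 and Gm10925 (chr1:24613974-24614651) lie on the same stretch of chromosome 1. How the counting treated reads from shared windows was not tested, and the zeros of these 6 genes in slice microglia are therefore no measurement of their transcripts.

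**Figure D1:**
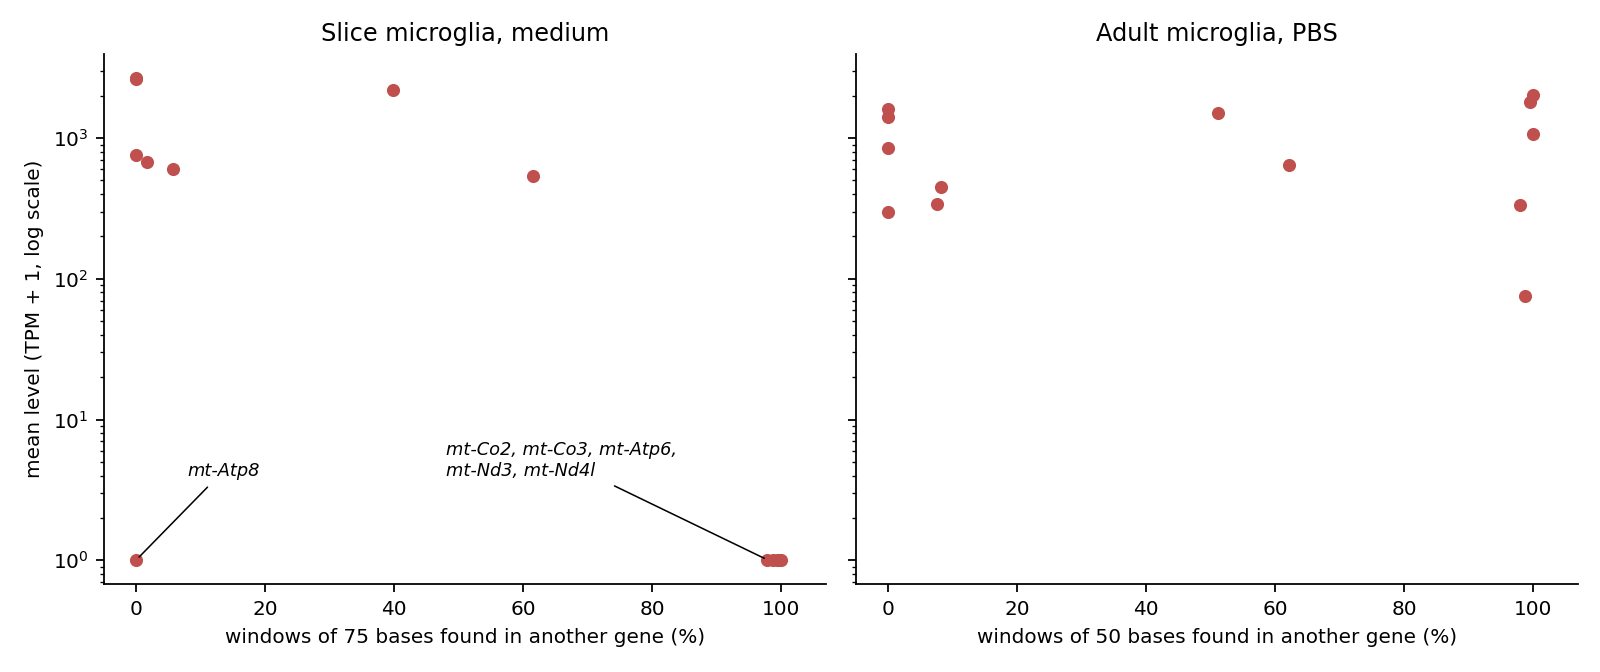
Mean level of the 13 mitochondrial subunit genes (TPM, which is corrected for gene length, with 1 added, log scale) against the percentage of their windows that also occur in another annotated transcript, for slice microglia in medium (windows of 75 bases, n = 9) and adult microglia after PBS (windows of 50 bases, n = 4). On the left, 5 genes with 97.8% or more of their windows shared, and mt-Atp8 with 0%, lie at 0; on the right, all 13 genes have counts.

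The copies themselves had almost no counts in slice microglia. In adult microglia they took 20.6% to 23.4% of the counts on mitochondrial subunits and copies together, and in brain tissue 20.5% to 21.5%. How counts fell between gene and copy varied from gene to gene: in adult microglia after PBS, Gm28437 had a mean of 471 CPM beside 439, 542, 497 and 458 CPM for mt-Co3, whereas Gm28439 had a mean of 2.5 CPM beside 247, 290, 271 and 270 CPM for mt-Nd4. Levels of mitochondrial genes are therefore levels as counted, and they were not set side by side between tables as if they were the same quantity.

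Nuclear subunit genes have no common promoter, but binding sequences for the regulators NRF1, GABP, YY1 and ERR have long been described in many of them. Promoter windows of 300 bases, 250 before and 50 after the start, were at hand for 68 of 85 nuclear subunit symbols (73 windows, RefSeq, GRCm38.p6). On either strand, the NRF1 motif of 10 letters was present in 24.7% of these windows against 4.6% of all 32851 windows, and the GABP motif CCGGAAG in 21.9% against 8.86%. The YY1 motif AAGATGG was present in 15.1% against 6.34%, and the ERR motif AAGGTCA in 11% against 4.72%. A match is a description of the letters and not a bound site. Sdhd, a membrane anchor of complex II, was among the 5 passing nuclear subunits with the lowest log2 fold changes in several comparisons. Only its value for TNF against GM-CSF was below 0 (-0.23). Those for LPS in adult microglia (0.20) and for the LPS effect in adult microglia minus that in brain tissue (0.25) were positive. Its window holds more than 1 of the motifs. For this reason the 250 bases before its start are shown. They lie at chr9:50603850-50604099, minus strand. Capitals mark the NRF1 motif and then the GABP motif, which is read on the other strand.
Sdhd: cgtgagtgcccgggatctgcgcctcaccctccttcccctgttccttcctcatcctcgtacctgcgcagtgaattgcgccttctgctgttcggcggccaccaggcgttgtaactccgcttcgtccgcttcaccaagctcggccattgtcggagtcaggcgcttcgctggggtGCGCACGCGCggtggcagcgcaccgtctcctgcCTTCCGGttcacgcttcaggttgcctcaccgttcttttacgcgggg

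The nuclear subunits together took 1.09% to 1.43% of the counts in slice microglia in medium, 1.25% to 1.54% after TNF and 1.44% to 1.86% after GM-CSF. The GM-CSF samples lay above every medium sample, whereas the TNF and medium samples overlapped. In adult microglia the nuclear share was 0.495% to 0.542% after PBS and 0.619% to 0.684% after LPS, with no overlap. In brain tissue the order was the other way round, with 0.864% to 0.891% in untreated mice and 0.839% to 0.855% after LPS.

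The mitochondrial share followed the treatment in adult microglia, where it was 0.323% to 0.374% after PBS and 0.470% to 0.563% after LPS over 13 genes. It was 5.50% to 5.59% in untreated brain tissue and 5.03% to 5.41% after LPS. In slice microglia, where 7 genes had counts, it was 0.261% to 0.600% in medium, 0.219% to 0.571% after TNF and 0.284% to 0.618% after GM-CSF, and the 3 groups overlapped. Within each of these groups, however, the samples with title codes 1A and 1B lay below all samples with codes 2A and 2B: in medium the 2 ranges were 0.261% to 0.313% and 0.418% to 0.600%.

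**Figure D2:**
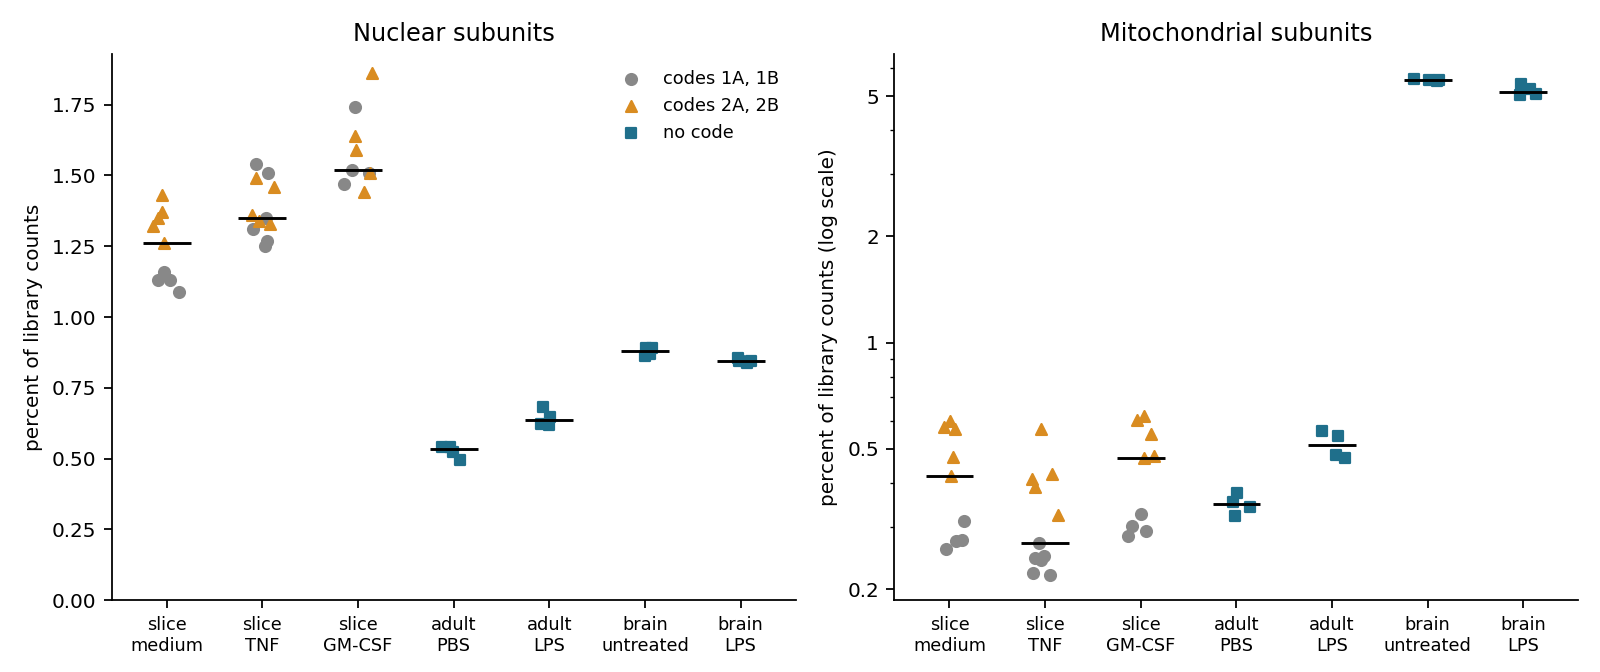
Percentage of each library's counts on nuclear subunits (left, linear axis from 0) and on mitochondrial subunits (right, log scale), with 1 point per sample, the median as a bar and the title code of slice samples as the marker. Adult microglia after LPS lie above those after PBS in both panels, brain tissue after LPS lies below untreated tissue in both, and slice samples with codes 2A and 2B lie above those with 1A and 1B for mitochondrial subunits (in medium 0.418% to 0.600% against 0.261% to 0.313%).

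TNF and GM-CSF were compared with medium to see how slice microglia respond to each. After TNF, 48 of the 81 nuclear subunits tested rose and 3 fell at an adjusted p under 0.05, where 21.1% of all 11313 genes tested rose and 20.8% fell. After GM-CSF, 42 of 81 rose and 3 fell, against 13.5% and 14.5% of all genes. The changes were small: the median log2 fold change was 0.22 after TNF (range -1.32 to 0.62) and 0.21 after GM-CSF (range -0.65 to 0.63), beside medians of -0.029 and -0.031 over all genes. With a fold change over 1.5 added to the criterion, 2 nuclear subunits rose after TNF and 3 after GM-CSF, against 9.47% and 4.95% of all genes. The 2 comparisons share their 9 medium samples, so their values are given side by side and their likeness is not read as a result.

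The same counts were taken by complex. In complex I, the NADH dehydrogenase, 23 of 36 nuclear subunits rose and 1 fell after TNF, and 15 rose and 1 fell after GM-CSF. In complex II, which is also an enzyme of the citric acid cycle, 2 of 4 rose after TNF and 1, Sdhd, after GM-CSF. In complex III, 7 of 9 rose after TNF and 8 after GM-CSF. In complex IV, cytochrome c oxidase, 7 of the 16 tested rose and 1 fell after TNF, and 7 rose and 2 fell after GM-CSF. In complex V, 9 of the 16 tested rose and 1 fell after TNF, and 11 rose after GM-CSF.

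**Figure D3:**
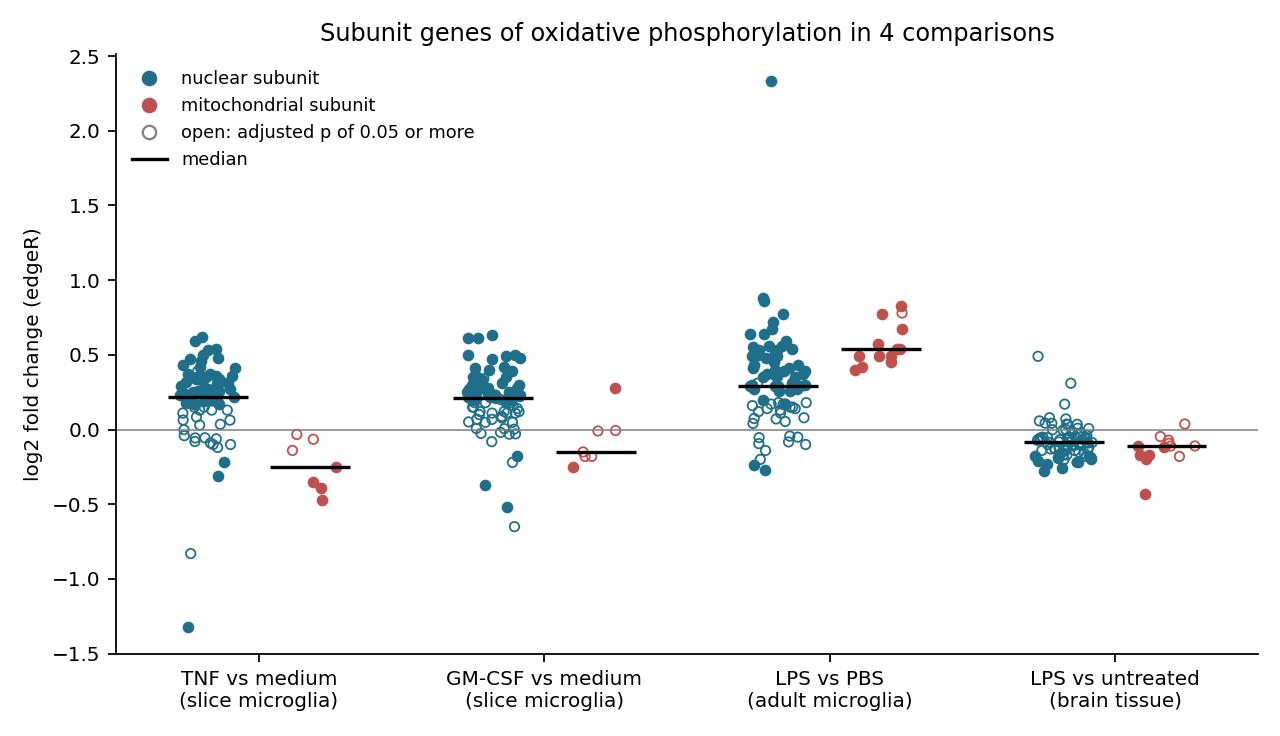
Log2 fold changes from edgeR of each tested nuclear subunit (blue) and mitochondrial subunit (red) in 4 comparisons, filled where the adjusted p was under 0.05, with the median as a black bar. Medians of nuclear subunits are 0.22, 0.21, 0.29 and -0.084 from left to right, and those of mitochondrial subunits are -0.25, -0.15, 0.54 and -0.11.

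Cyc1, the cytochrome c1 of complex III that hands electrons to cytochrome c, had a lowest, median and highest level of 126, 153 and 203 CPM in medium, 192, 239 and 305 CPM after TNF and 207, 224 and 301 CPM after GM-CSF. All GM-CSF samples lay above all medium samples, and TNF overlapped with medium at the lower end only. The log2 fold change of Cyc1 was 0.62 ± 0.08 (SE) after TNF (adjusted p = 8.92e-08) and 0.61 ± 0.083 after GM-CSF (adjusted p = 6.55e-07, edgeR). Uqcrq, a small subunit of the same complex, was at 144, 185 and 230 CPM in medium, 226, 253 and 320 CPM after TNF and 191, 236 and 312 CPM after GM-CSF. It rose by 0.59 ± 0.062 (log2, SE) after TNF and by 0.42 after GM-CSF, and both groups overlapped with medium.

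Atp5b encodes the catalytic beta subunit of ATP synthase. Its level was 1043, 1084 and 1260 CPM in medium, 1368, 1494 and 1796 CPM after TNF and 1489, 1573 and 1831 CPM after GM-CSF. Every treated sample lay above every medium sample in both comparisons, with log2 fold changes of 0.43 ± 0.044 (SE, adjusted p = 8.45e-10) and 0.50 ± 0.046 (adjusted p = 2.18e-10). Of the 81 tested, Atp5b was the 1 nuclear subunit wholly above medium after TNF, and 6 were so after GM-CSF, where 6.25% and 2.93% of all genes were.

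Atp5g1, a gene for the c subunit of the membrane ring, was at 67, 83.4 and 108 CPM in medium, 99.2, 118 and 133 CPM after TNF and 109, 122 and 157 CPM after GM-CSF. Its log2 fold changes were 0.54 ± 0.075 (SE) and 0.61 ± 0.077. Ndufa12, an accessory subunit of complex I, was at 47.7, 62 and 78.9 CPM in medium, 75.6, 89 and 103 CPM after TNF and 80, 92 and 116 CPM after GM-CSF, with log2 fold changes of 0.53 ± 0.076 and 0.63 ± 0.079. For both genes the GM-CSF samples did not overlap with medium and the TNF samples did. Cox5a, a nuclear subunit of cytochrome c oxidase, was at 68.9, 88.9 and 108 CPM in medium, 103, 124 and 138 CPM after TNF and 110, 125 and 150 CPM after GM-CSF, and rose by 0.47 and 0.50 on the log2 scale. Again the GM-CSF samples lay above all medium samples and the TNF samples did not.

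Not all subunits rose. Cox7a2l, a relative of the complex IV subunit Cox7a2 known for its part in joining complexes III and IV, fell after both cytokines. C57BL/6 mice are known to carry a shortened form of its protein. It was at 44.9, 55.8 and 73.7 CPM in medium, 37.8, 42.8 and 54.4 CPM after TNF and 37, 42.2 and 53 CPM after GM-CSF, with log2 fold changes of -0.31 ± 0.085 (SE, adjusted p = 0.00347) and -0.37 ± 0.088 (adjusted p = 0.00135). The groups overlapped. Ndufs1, the large iron-sulfur subunit of complex I, fell after TNF (-0.22 ± 0.082, adjusted p = 0.0269) and Ndufa1, a small membrane subunit, fell after GM-CSF (-0.18 ± 0.067, adjusted p = 0.0422). Atp5l, subunit g of ATP synthase, passed as lower after TNF (-1.32 ± 0.54, adjusted p = 0.0467). Its level of 0 to 6.51 CPM over all slice libraries, however, stands beside 43.3 to 48.7 CPM in adult microglia after PBS. Why slice libraries held so few of its counts was not tested, so these values are not taken as a measurement of its transcript. The antisense gene Gm30934 overlaps 544 of its bases and had at most 1.2 CPM in any slice library. The calls on Cox7a2l were lost within each pair of codes alone, after TNF (-0.29 and -0.31) and after GM-CSF (-0.34 and -0.38). The call on Atp5l was lost without the title code block, with other blocks in its place and within codes 2A and 2B (-0.46). That on Ndufs1 was lost without the low-count filter, without the code block and within each pair of codes alone, and its log2 fold change was -0.12 with the replicate block. The call on Ndufa1 was lost in each of these settings too, and by total counts, where its log2 fold change was -0.078.

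The size of the nuclear change moved with the title code. Within codes 1A and 1B alone, 55 nuclear subunits rose after TNF and 1 fell, with a median log2 fold change of 0.32. Within codes 2A and 2B alone, 14 rose and none fell, with a median of 0.15. After GM-CSF the medians were 0.31 within 1A and 1B and 0.15 within 2A and 2B, where 14 rose. Scaling by total counts without TMM shifted the median of all genes by -0.1 after TNF, and 35 nuclear subunits then rose and 9 fell.

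The levels of microglia markers moved in the same samples: 8 of 8 fell after TNF (sum 19922 to 28554 CPM in medium, 11360 to 15370 CPM after TNF) and 8 of 8 after GM-CSF (14825 to 16720 CPM). All 8 remained detected in every group. The sum of 10 markers of border macrophages and monocytes was 400 to 1112 CPM in medium, 446 to 1275 CPM after TNF and 356 to 997 CPM after GM-CSF. Of other markers tested, 2 of 5 for oligodendrocytes rose after TNF and 1 fell after GM-CSF, and 2 of 8 for astrocytes fell after TNF and 1 after GM-CSF. Of 2 neutrophil markers tested, 1 rose after TNF, and the sum of all 8 was at most 14 CPM in medium, 113 CPM after TNF and 42.8 CPM after GM-CSF. The 1 lymphocyte marker tested fell after both cytokines. The part of these markers in the subunit changes was not tested.

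Mitochondrial subunits did not follow the nuclear ones in slice microglia. After TNF, none of the 7 with counts rose (0 also at an unadjusted p under 0.05 and by DESeq2) and 4 fell, against 21.1% and 20.8% of all genes, and the median log2 fold change was -0.25 (range -0.47 to -0.033). After GM-CSF, 1 rose and 1 fell, against 13.5% and 14.5% of all genes, and the median was -0.15. Scaled by total counts, the gene that fell no longer passed.

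The level of mt-Cytb, the cytochrome b of complex III, has to be read within title codes. In codes 1A and 1B its lowest, median and highest level was 639, 679 and 753 CPM in medium (n = 4), 449, 485 and 588 CPM after TNF (n = 6) and 645, 684 and 722 CPM after GM-CSF (n = 4). In codes 2A and 2B it was 1004, 1509 and 1562 CPM in medium (n = 5), 693, 990 and 1376 CPM after TNF (n = 5) and 1086, 1350 and 1569 CPM after GM-CSF (n = 5). TNF samples lay wholly below medium in the first pair of codes and overlapped in the second. With the code as a block, mt-Cytb fell by 0.47 ± 0.079 (log2, SE) after TNF (adjusted p = 9.26e-06).

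The complex I subunits mt-Nd5 (-0.39 ± 0.11, adjusted p = 0.00519), mt-Nd6 (-0.35 ± 0.11, adjusted p = 0.00954) and mt-Nd4 (-0.25 ± 0.10, adjusted p = 0.0345) also fell after TNF. In codes 1A and 1B, mt-Nd5 was at 277 to 359 CPM in medium and 157 to 258 CPM after TNF, without overlap, whereas in codes 2A and 2B it was at 388 to 700 CPM and 241 to 625 CPM. By contrast mt-Co1, the catalytic subunit of cytochrome c oxidase, had a log2 fold change of -0.033 after TNF, with 754 to 972 CPM in medium and 791 to 887 CPM after TNF in codes 1A and 1B. The calls on mt-Nd4 and mt-Nd6 were lost within each pair of codes alone, and without the block none of the 7 genes passed after TNF.

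After GM-CSF the gene that rose was mt-Nd1 of complex I (0.28 ± 0.074, SE, adjusted p = 0.00397) and the gene that fell was mt-Co1 (-0.25 ± 0.061, adjusted p = 0.00181). In codes 1A and 1B mt-Nd1 was at 512, 616 and 624 CPM in medium and 683, 784 and 848 CPM after GM-CSF, without overlap, and in codes 2A and 2B it was at 977, 1164 and 1360 CPM and 1190, 1340 and 1425 CPM, with overlap. Both genes are known to be transcribed from the same strand of the mitochondrial genome.

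**Figure D4:**
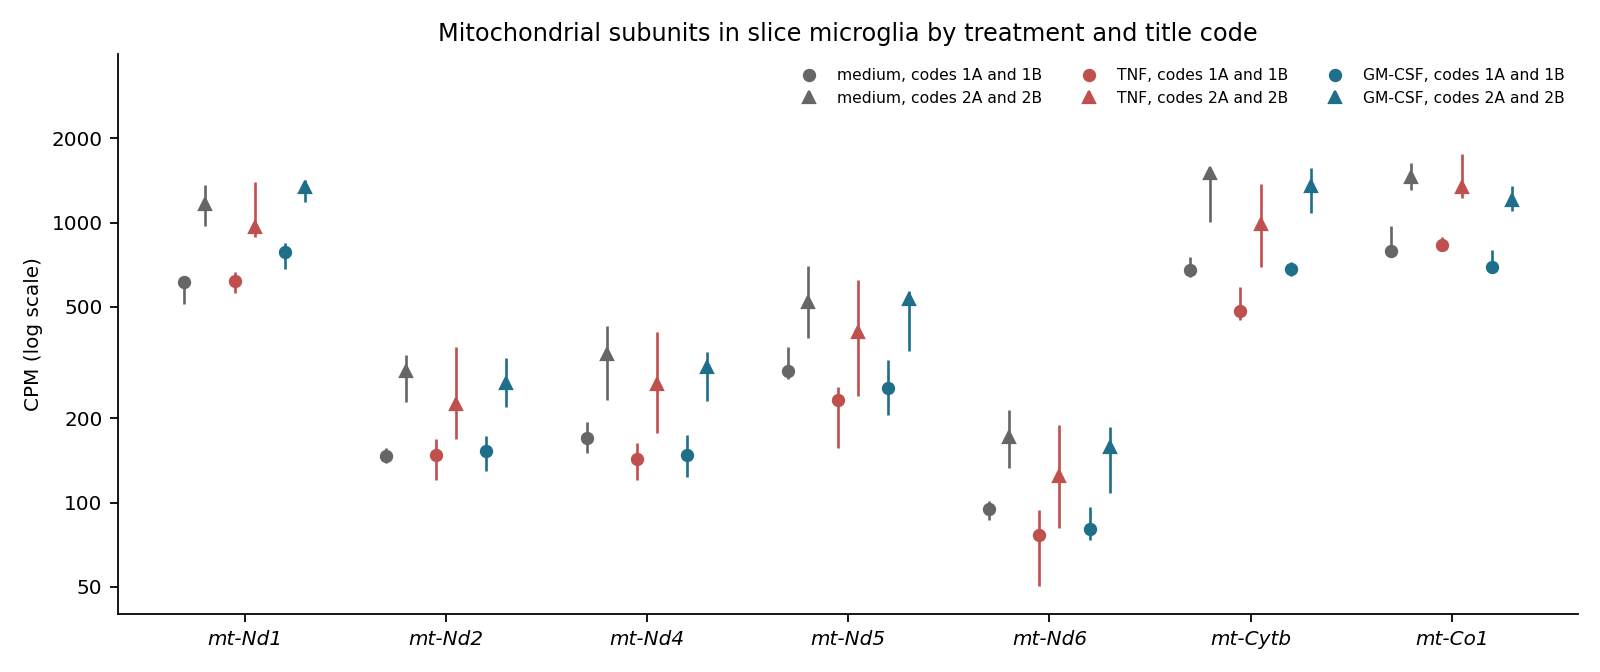
Levels (CPM, log scale) of the 7 mitochondrial subunits with counts in slice microglia, for medium, TNF and GM-CSF and for title codes 1A with 1B (circles) and 2A with 2B (triangles); the symbol is the median and the line runs from the lowest to the highest sample. In every gene and treatment the median is higher under 2A and 2B, and mt-Cytb after TNF lies below medium in each pair of codes (median 485 against 679 CPM and 990 against 1509 CPM).

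Title codes went with larger differences in mitochondrial subunits than either cytokine did. Samples with codes 2A and 2B had more of all 7 in each treatment, by a median log2 difference of 0.91 in medium, 0.79 after TNF and 0.85 after GM-CSF. Nuclear subunits were also higher under 2A and 2B, by 0.34, 0.13 and 0.11, in 74, 62 and 63 of 81 genes, while the median over all genes was -0.017, -0.003 and -0.012. The log2 ratio of mitochondrial to nuclear counts reflected both the code and the treatment: under 1A and 1B it was -2.12 to -1.89 in medium, -2.82 to -2.32 after TNF and -2.57 to -2.17 after GM-CSF. Both cytokine groups lay below medium there. Under 2A and 2B the ranges were -1.69 to -1.14, -2.20 to -1.35 and -1.98 to -1.29, and they overlapped. Titles of slice samples also end in a running number, and within a code the numbers often run from medium through TNF to GM-CSF. The labels do not say that neighbouring numbers belong together, and sets of them were formed after seeing the data. In such sets the ratio was lower after TNF than in medium in 9 of 9 (log2 difference -0.61 to -0.18) and lower after GM-CSF in 8 of 8 (-0.52 to -0.063). The mitochondrial share itself was lower after TNF in 9 of 9 sets, whereas after GM-CSF it was higher in 6 of 8 and lower in 2.

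The direct comparison of TNF with GM-CSF came next. Here nuclear subunits showed no common direction: 9 of 81 were higher after TNF and 7 were lower, against 17.3% and 16.9% of all genes, and the median log2 difference was 0.0088. This split turned with the scaling. By total counts, which moved the median of all genes by -0.2, 1 nuclear subunit was higher and 40 were lower, and of the mitochondrial subunits none was higher and 6 were lower. With TMM, 1 of 7 mitochondrial subunits was higher after TNF and 2 were lower.

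Single genes differed between the cytokines. Ndufs1 was at 75.6, 92.8 and 104 CPM in medium, 49.3, 81.9 and 106 CPM after TNF and 87.3, 105 and 139 CPM after GM-CSF. It was lower after TNF than after GM-CSF by a log2 difference of -0.40 ± 0.081 (SE, adjusted p = 0.000154), although the groups overlapped. Sdhd was at 225, 253 and 285 CPM in medium, 243, 278 and 373 CPM after TNF and 290, 327 and 450 CPM after GM-CSF, where all samples lay above medium. It rose by 0.40 ± 0.072 after GM-CSF (adjusted p = 4.48e-05) and was lower after TNF than after GM-CSF (log2 difference -0.23). Its partner Sdhb, the iron-sulfur subunit of complex II, went the other way with a log2 difference of 0.15. Ndufc2, a membrane subunit of complex I, was at 159, 187 and 207 CPM after TNF and 131, 151 and 191 CPM after GM-CSF (0.30 ± 0.056, adjusted p = 4.95e-05), beside 108, 150 and 173 CPM in medium. By total counts the difference of Ndufc2 was 0.13 and did not pass. Among mitochondrial subunits, mt-Cytb (-0.46 ± 0.079, adjusted p = 1.39e-05) and mt-Nd1 (-0.35 ± 0.07, adjusted p = 0.000171) were lower after TNF than after GM-CSF and mt-Co1 was higher (0.22 ± 0.058, adjusted p = 0.00336). The call on mt-Co1 was lost by total counts (0.045), without the code block (0.14), with the replicate block (0.027) and within codes 2A and 2B (0.19).

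In adult microglia, LPS was compared with PBS 24 h after injection, and subunits of both genomes rose. Of 79 nuclear subunits tested, 50 rose and 2 fell, where 26.7% of 12987 genes rose and 24.9% fell. The median log2 fold change was 0.29 (range -0.27 to 2.33), beside 0.012 over all genes. Of the 13 mitochondrial subunits, 12 rose and none fell, with a median of 0.54 (range 0.40 to 0.83). None fell at an unadjusted p under 0.05 or by DESeq2 either. All 4 LPS samples lay above all 4 PBS samples for 50 nuclear and 12 mitochondrial subunits, against 24.1% of all genes, and below them for 2 nuclear subunits, against 23.3%. A fold change over 1.5 was reached by 9 nuclear and 3 mitochondrial subunits, against 14.4% of all genes.

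By complex, 17 of 36 nuclear subunits of complex I rose and 1 fell, 2 of 4 of complex II rose, 5 of 9 of complex III rose, 12 of the 14 tested of complex IV rose and 1 fell, and 14 of the 16 tested of complex V rose. Complexes IV and V thus had the larger shares. In complex I, the core subunits Ndufs3, Ndufs7, Ndufs8, Ndufv1 and Ndufv2 did not pass, with log2 fold changes of 0.05 to 0.17, whereas the core subunit Ndufs1 passed (0.27).

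The gene with the largest change was Cox6a2. It was at 2.37, 2.16, 2.66 and 1.3 CPM after PBS and 12.5, 8.82, 11.4 and 9.79 CPM after LPS. The groups were far apart, and the log2 fold change was 2.33 ± 0.22 (SE, adjusted p = 6.59e-06). Cox6a2 (chr7:128205435-128206387, minus strand) encodes the form of a cytochrome c oxidase subunit best known from heart and skeletal muscle. It lies whole within Itgad on the opposite strand, and the kit used for microglia does not keep the strand, but Itgad had at most 1.69 CPM in any library of the 7 groups.

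Atp5g1 was at 49.3, 45.3, 54.4 and 52.6 CPM after PBS and 88.1, 94.9, 92.6 and 89.4 CPM after LPS (0.86 ± 0.073, adjusted p = 2.94e-06). Ndufa12 was at 23.1, 25.1, 24.9 and 27 CPM and at 43.9, 44.3, 47.2 and 49.5 CPM (0.88 ± 0.083, adjusted p = 5.44e-06). Uqcrq was at 36.4, 33.8, 38.7 and 37.9 CPM and at 63.2, 59.1, 66 and 62.7 CPM (0.77 ± 0.074, adjusted p = 6.15e-06). None of these 3 genes had overlapping groups, and each had risen in slice microglia after TNF and after GM-CSF as well. Cyc1 (0.64), Cox7b (0.72 ± 0.1), Cox5a (0.67) and Uqcr11 (0.64), all subunits of complexes III and IV, rose by similar amounts. Atp5b was at 434, 453, 435 and 439 CPM after PBS and 684, 642, 636 and 629 CPM after LPS (0.56 ± 0.059).

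The nuclear subunits that fell were Cox7a2l and Ndufc2. Cox7a2l was at 42.3, 46.3, 49.4 and 48.9 CPM after PBS and 35.7, 42.9, 41.1 and 35.1 CPM after LPS, with 1 LPS sample inside the PBS range (-0.27 ± 0.091, SE, adjusted p = 0.025). Ndufc2 was at 59.8, 65.9, 61.5 and 59.5 CPM and at 50.5, 57.2, 53.7 and 48.2 CPM, without overlap (-0.24 ± 0.075, adjusted p = 0.02), and the gene that overlaps it, Gm16053, had at most 0.288 CPM in any library. Leaving out 1 sample at a time, between 0 and 3 nuclear subunits passed as lower.

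Of the mitochondrial subunits, mt-Nd1 changed most. It was at 470, 500, 466 and 422 CPM after PBS and 840, 884, 790 and 781 CPM after LPS (0.83 ± 0.073, SE, adjusted p = 3.62e-06). The ATP synthase subunit mt-Atp6, part of the proton channel, was at 357, 393, 361 and 373 CPM and at 604, 680, 652 and 598 CPM (0.77 ± 0.068, adjusted p = 3.5e-06), and its neighbour mt-Atp8, which shares 43 bases with it, rose by 0.67. The lowest change that passed was that of mt-Nd4, at 247, 290, 271 and 270 CPM and 332, 415, 364 and 314 CPM (0.40). LPS samples lay above PBS samples for each of these 4 genes. The gene that did not pass was mt-Nd4l, at 5.89, 7.62, 13.3 and 0 CPM after PBS and 4.74, 8.39, 21.9 and 10.6 CPM after LPS.

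Adding the counts of the chromosome 1 copies to their mitochondrial genes, a setting chosen after seeing the data, gave 13 of 13 higher with a median of 0.55. Of the microglia markers, 1 rose and 6 fell in these libraries (sum 56238 to 62294 CPM after PBS and 41605 to 45298 CPM after LPS). Of 8 neutrophil markers, 5 were tested and fell, from a sum of 40.6 to 83.9 CPM to a sum of 1.61 to 8.31 CPM, and 8 astrocyte markers summed to 256 to 281 CPM and 147 to 183 CPM. Only 3 astrocyte markers were tested, of which 1 fell, and their median log2 fold change was 0.30. Of 4 oligodendrocyte markers tested 3 fell, and both endothelial markers tested fell. By contrast, 10 markers of border macrophages and monocytes summed to 20.6 to 26.7 CPM after PBS and 29.1 to 41.1 CPM after LPS. Of 5 of them tested, 2 rose and 2 fell. Their part in the subunit changes was not tested.

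In whole brain tissue the same dose and time of LPS went with small changes in the other direction. None of 81 nuclear subunits tested rose and 9 fell, where 6.06% of 15083 genes rose and 4.1% fell, and the median log2 fold change was -0.084, beside 0.0028 over all genes. Of 13 mitochondrial subunits, none rose and 6 fell, with a median of -0.11. At an unadjusted p under 0.05 and by DESeq2, 0 subunits of either genome rose as well. LPS samples lay wholly below untreated ones for 22 nuclear and 6 mitochondrial subunits, against 7.81% of all genes. None of the 15 that fell reached a fold change of 1.5, a call that 0.55% of all genes met. The number of nuclear subunits that fell depended on single samples: it was 1 without untreated replicate 2, 4 without untreated replicate 4, 5 without untreated replicate 3 and 14 without LPS replicate 3.

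As counted, mt-Nd3 of complex I was at 295, 306, 283 and 307 CPM in untreated tissue and 197, 204, 256 and 228 CPM after LPS (-0.43 ± 0.073, SE, adjusted p = 0.00394). Its copy Gm28438 held more counts than the gene, at 691, 715, 750 and 727 CPM and 739, 761, 591 and 618 CPM, and the 2 LPS samples lowest in the gene were the highest in the copy. With the copy added, the log2 fold change of mt-Nd3 was -0.18, so the size of its change rests on how counts fell between gene and copy. Errors smaller than that of mt-Nd3 were those of mt-Nd4, at 5753, 5754, 5683 and 5677 CPM and 5027, 5197, 5044 and 5016 CPM (-0.17 ± 0.025, adjusted p = 0.000371), and mt-Nd1, at 4945, 4958, 4896 and 4870 CPM and 4102, 4389, 4590 and 4059 CPM (-0.20 ± 0.036, adjusted p = 0.002). Untreated samples agreed within narrow limits and all LPS samples lay below them for these 3 genes. By contrast mt-Atp6 was at 3583, 3572, 3509 and 3473 CPM and 3608, 3583, 3888 and 3426 CPM, with overlap and a log2 fold change of 0.037 that did not pass. Its copy Gm10925 had means of 3775 CPM in untreated tissue and 3280 CPM after LPS. The direction of mt-Atp6 as counted therefore also rests on how counts fell between gene and copy. With the chromosome 1 copies added, 9 mitochondrial subunits fell, with a median of -0.12.

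The 9 nuclear subunits that fell were spread over complexes I, III, IV and V. Cox7c, a small subunit of complex IV, was at 37.8, 43.6, 38.1 and 40.9 CPM in untreated tissue and 34.6, 34.5, 29.7 and 33 CPM after LPS (-0.28 ± 0.071, SE, adjusted p = 0.0192). The others were Ndufa7 (-0.26) and Ndufs8 (-0.20) of complex I, Uqcrq (-0.23) and Uqcrh (-0.18) of complex III, Cox6b1 (-0.19) of complex IV, and Atp5e (-0.22), Atp5j2 (-0.21) and Atp5o (-0.18) of complex V. In each of the 9 the untreated and LPS samples did not overlap.

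In the same tissue 5 of 8 oligodendrocyte markers fell (sum 6359 to 6953 CPM in untreated tissue and 4895 to 5781 CPM after LPS) and 5 of 8 endothelial markers rose (212 to 225 CPM and 323 to 390 CPM). Of 7 neuron markers tested, 1 fell (6446 to 6612 CPM and 6046 to 6598 CPM). Of 4 border macrophage and monocyte markers tested, 2 rose (sum of the list 6.73 to 8.38 CPM and 11.1 to 16 CPM). The 1 neutrophil marker tested rose (sum of the list 0.503 to 1.55 CPM and 3.16 to 7.97 CPM). Of 8 microglia markers 1 rose and 2 fell, and of 8 astrocyte markers 2 rose and 2 fell. Their part in the subunit changes was not tested, and injection itself cannot be told apart from LPS here because the controls were not injected.

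**Figure D5:**
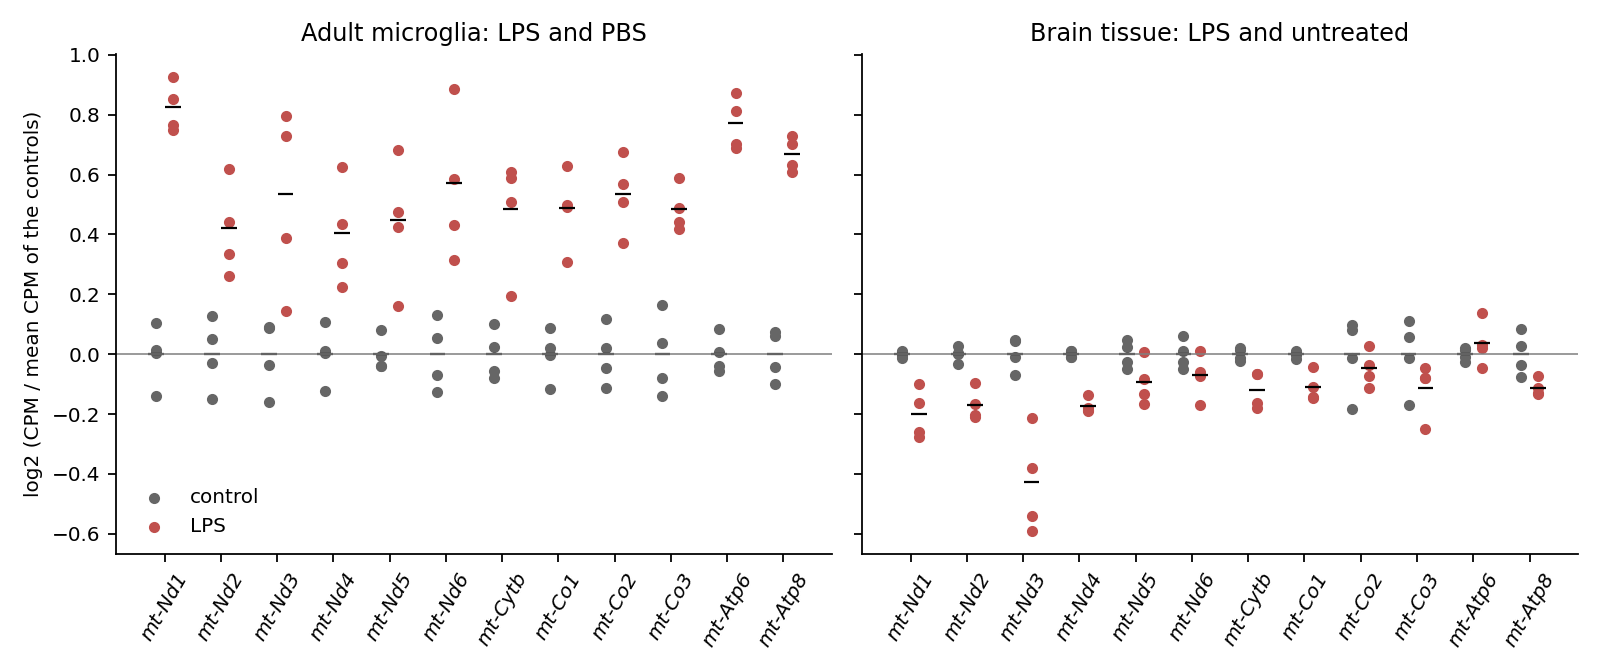
Levels of 12 mitochondrial subunits in each sample as log2 of CPM over the mean of the controls, for adult microglia (left) and brain tissue (right), with controls in grey (n = 4), LPS in red (n = 4) and group means as black bars; mt-Nd4l is left out because it was at 0 in 1 library. In adult microglia the LPS samples lie above the controls for all 12 genes, whereas in brain tissue they lie below for mt-Nd3, mt-Nd1, mt-Nd2, mt-Nd4, mt-Cytb and mt-Co1.

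Whether LPS acted differently on the subunits in the sorted cells and in the tissue was tested as the difference between the 2 LPS effects. It was larger in adult microglia for 54 of 82 nuclear subunits and smaller for 2, against 14.5% and 16.3% of 16676 genes, with a median log2 difference of 0.39. This fit also kept genes with enough counts in a single table, beside 12987 genes tested in adult microglia and 15083 in brain tissue. The shares of all genes are therefore not those of genes measured in both. Among the 82, Atp5c1 was at 0 in brain tissue, and Cox4i2, Cox7a1 and Ndufa4l2 had too few counts in adult microglia. It was larger for 12 of 13 mitochondrial subunits and smaller for none (0 also at an unadjusted p under 0.05 and by DESeq2), with a median of 0.60 (range 0.53 to 1.02). The largest differences were those of Cox6a2 (2.50 ± 0.31, SE, adjusted p = 5.15e-06), Atp5g1 (1.07 ± 0.11, adjusted p = 7.67e-07), mt-Nd1 (1.02 ± 0.1, adjusted p = 1.9e-07) and Uqcrq (0.99 ± 0.1, adjusted p = 2.85e-07). Ndufc2 and Cox7a2l had differences of -0.29 each. The tissues differ in cell make-up, library kit, sequencing run and in whether controls were injected, and these cannot be told apart from the tissue in the difference.

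Several subunits exist in more than 1 form, and their levels were compared per length, in TPM. Cox6a1, the form found in most tissues, had a mean of 1656 ± 150.0 TPM (SD, n = 9) in slice microglia in medium, beside 174 ± 56.4 TPM for Cox6a2. In adult microglia Cox6a1 had 410 ± 24.1 TPM after PBS and 573 ± 40.9 TPM after LPS (n = 4), and Cox6a2 had 10.3 ± 2.83 TPM and 50.2 ± 6.32 TPM. Cox6a1 therefore stayed the more abundant form throughout. The form that changed most after LPS had the lower level.

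In slice microglia Cox6a2 was at 22.3, 40.5 and 60.1 CPM in medium, 19.6, 50 and 67.8 CPM after TNF and 16.8, 30.8 and 34.4 CPM after GM-CSF. It fell after GM-CSF (-0.52 ± 0.19, SE, adjusted p = 0.0433), a call that was lost by total counts and within codes 2A and 2B, and was higher after TNF than after GM-CSF (0.78 ± 0.18, adjusted p = 0.000976). Cox6a1 did not pass in slice microglia, with log2 fold changes of -0.00095 after TNF and -0.026 after GM-CSF. In brain tissue Cox6a2 was at 4.12, 6.22, 5.17 and 4.91 CPM and 4.01, 2.95, 5.44 and 5.62 CPM, with overlap.

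The c subunit of ATP synthase has 3 genes that encode the same mature protein. Atp5g3 was the highest of them in slice microglia in medium (274 ± 47.2 TPM, SD, n = 9), followed by Atp5g1 (47.2 ± 7.06 TPM) and Atp5g2 (20.5 ± 2.48 TPM). Atp5g1 and Atp5g3 rose after TNF (0.54 and 0.35), after GM-CSF (0.61 and 0.48) and in adult microglia after LPS (0.86 and 0.55), whereas Atp5g2 passed in none of these. Atp5g2 was at 19.7, 15, 26 and 22.1 CPM in adult microglia after PBS and 19.1, 28.5, 25.7 and 18.5 CPM after LPS, and 35.8% of its 75-base windows also occur in another gene.

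Cox4i1, the common form of the largest nuclear subunit of complex IV, had 962 ± 119.0 TPM in medium, beside 10.2 ± 4.03 TPM for Cox4i2, a form known from lung and from cells at low oxygen. Cox4i2 was at 0.528, 1.75 and 3.3 CPM after TNF and 1.71, 3.78 and 4.54 CPM after GM-CSF (-1.16 ± 0.35, adjusted p = 0.0101), and Ndufa4l2 at 0.723, 2.15 and 4.45 CPM and 0.136, 1.05 and 1.62 CPM (1.04 ± 0.41, adjusted p = 0.0476). Both are genes of few counts, and the groups overlapped. The call on Cox4i2 was lost within each pair of codes alone (-1.37 and -0.97). That on Ndufa4l2 was lost there too (0.68 and 1.39), and by total counts (0.88), without the low-count filter (1.02) and with other blocks in place of the title code (1.15 and 1.09). Over all listed forms, 5 of 15 tested rose and 1 fell after TNF (33.3% and 6.67%, against 21.1% and 20.8% of all genes), and 6 rose and 2 fell after GM-CSF (40% and 13.3%, against 13.5% and 14.5%). In adult microglia after LPS 10 of 13 rose and 1 fell (76.9% and 7.69%, against 26.7% and 24.9%), and in brain tissue 1 of 16 fell (6.25% against 4.1%).

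The genes around the respiratory chain were followed with lists set by function. The counts of these lists are read against the shares of all genes that rose and fell, which were 21.1% and 20.8% after TNF, 13.5% and 14.5% after GM-CSF, 26.7% and 24.9% in adult microglia after LPS and 6.06% and 4.1% in brain tissue. Of 37 assembly factors tested, which insert cofactors and join subunits, 10 rose and 2 fell after TNF, 3 rose and 1 fell after GM-CSF, 10 of 39 rose and 3 fell in adult microglia after LPS and 2 fell in brain tissue. The shares that rose, 27% after TNF, 8.11% after GM-CSF and 25.6% in adult microglia, were near or below those of all genes. Cox18, which inserts part of mt-Co2 into the membrane, had the highest change after TNF (0.97). Among the 9 symbol matches that are no subunits, Ndufaf5 rose after TNF (0.92 ± 0.2, SE, adjusted p = 0.000412) and GM-CSF (0.65), with 3.76, 6.4 and 9.72 CPM in medium, 6.84, 12.3 and 17.1 CPM after TNF and 6.35, 10.4 and 13.5 CPM after GM-CSF. In all, 5 of these 9 rose and 1 fell after TNF, 3 rose after GM-CSF, and Ndufaf4 rose and Atp5s fell in adult microglia (0.51 and -0.46). In brain tissue Ndufaf3 fell (-0.27).

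The ribosome of the mitochondria, which translates the 13 mitochondrial transcripts, is itself made of nuclear proteins, and most of those that passed rose. Of 77 tested, 48 rose and 1 fell after TNF (62.3% against 21.1% of all genes higher, median log2 fold change 0.31), and 45 rose after GM-CSF (58.4% against 13.5%, median 0.32). In adult microglia 40 of 78 rose and 1 fell after LPS (51.3% against 26.7%, median 0.25), and in brain tissue 1 fell. Of 24 other genes of mitochondrial transcription, RNA processing and translation, 7 rose and 2 fell after TNF, 9 rose and 1 fell after GM-CSF, and 10 rose and 2 fell in adult microglia after LPS. The shares that rose were 29.2%, 37.5% and 41.7%, of which the first lay nearest to that of all genes (21.1%, 13.5% and 26.7%). None passed in brain tissue by edgeR, where 1 was higher and 1 lower at an unadjusted p under 0.05 and 0 passed by DESeq2. Pnpt1, an RNA-degrading enzyme of mitochondria that is also known as an interferon-induced gene, was highest after TNF (1.09) and in adult microglia after LPS (1.14), and Twnk, the helicase of mitochondrial DNA replication, fell after TNF (-0.79).

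Cytochrome c, encoded by Cycs, carries electrons between complexes III and IV. It rose after TNF (0.97, adjusted p = 8.93e-13), after GM-CSF (0.68, adjusted p = 1.88e-08) and in adult microglia after LPS (0.68, adjusted p = 6.67e-05), and fell in brain tissue after LPS (-0.37, adjusted p = 0.0059). Of the 24 carriers and transporters with it, 10 rose and 2 fell after TNF, 11 rose and 2 fell after GM-CSF and 12 rose and 1 fell in adult microglia after LPS, so that 41.7%, 45.8% and 50% rose against 21.1%, 13.5% and 26.7% of all genes. In adult microglia the extremes were genes of ubiquinone synthesis, Pdss1 (1.71) and Coq8a (-1.89). In the citric acid cycle with pyruvate entry, 11 of 23 genes rose and 4 fell after TNF, 12 rose and 1 fell after GM-CSF, 10 of 22 rose and 4 fell in adult microglia after LPS, and 2 rose and 2 fell in brain tissue. The shares that rose were 47.8%, 52.2% and 45.5% in the first 3, against the same shares of all genes, and 8.7% each way in brain tissue, against 6.06% and 4.1%. Idh3a was highest in adult microglia (0.97), and the pyruvate dehydrogenase kinase genes Pdk2 (-1.04 after TNF) and Pdk1 (-0.81 in adult microglia) were lowest in their comparisons.

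Of 14 regulators linked to respiratory genes, 12 were tested in sorted cells. Cebpb, an inflammatory transcription factor, had the highest change among those that passed in each of the 4 comparisons with a control (1.57 after TNF, 1.04 after GM-CSF, 1.57 in adult microglia and 0.73 in brain tissue). In total 4 rose after TNF, 1 rose and 2 fell after GM-CSF, 4 rose and 4 fell in adult microglia after LPS, and 2 of 14 rose in brain tissue. With so few genes, 2 of these comparisons lie near the shares of all genes: 8.33% rose and 16.7% fell after GM-CSF, against 13.5% and 14.5%, and 33.3% moved each way in adult microglia, against 26.7% and 24.9%. After TNF 33.3% rose, against 21.1%, and 0% fell, against 20.8% (2 genes fell at an unadjusted p under 0.05 and 0 by DESeq2). In brain tissue 14.3% rose, against 6.06%. Among the proteins known to act on the motifs described for the promoters, the transcripts of Nrf1 (-0.47), Gabpa (-0.39) and Gabpb1 (-0.86) fell in adult microglia after LPS, that of Gabpb2 rose (0.40), and those of Esrra (0.12) and Yy1 (-0.10) did not pass. The coactivator gene Ppargc1b rose there (1.01, adjusted p = 0.002). After TNF, Esrra rose (0.68, adjusted p = 0.00118, edgeR), whereas Nrf1, Gabpa, Gabpb1, Gabpb2 and Yy1 did not pass.

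Not every gene could be followed. In slice microglia 81 of 86 nuclear subunits had enough counts to be tested, in adult microglia 79 and in brain tissue 81. Cox7b2, Cox8b, Cox8c and a second Atp5o entry were tested in none of the 3 tables. Cox6b2 was below the limit in slice microglia, and Cox4i2, Cox7a1 and Ndufa4l2 were below it in adult microglia. Atp5c1, the gamma subunit of ATP synthase, was at 0 in all 8 brain libraries, although it was at 114, 124, 128 and 132 CPM in adult microglia after PBS and 281 to 472 CPM in slice microglia, so its zero in brain tissue is no measurement of its transcript. Of the 108 genes, 50 overlap another annotated gene, and the values of such genes can include reads of the neighbour.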

How the data were processed

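RNA was sequenced from 29 slice microglia, 8 adult microglia and 8 brain tissue samples. For slice microglia the authors deposited raw counts per gene, for which the submitters' processing notes name STAR 2.7.0a, featureCounts from Subread 1.6.4 and the mm10 build. For the other 2 sets the deposited values are expected counts (estimated counts with decimals) on mm10, rounded here to whole numbers. The aligner and counter behind them were not given in the sources used here. Of the brain rows, 92 name no gene and hold 0 counts.

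Symbols came from GENCODE M21. edgeR 4.0.16 (R 4.3.3, limma 3.58.1) was run on each table with TMM, filterByExpr (minimum count 10, minimum total 15), robust quasi-likelihood fits and Benjamini-Hochberg adjustment over all genes tested; title codes were a block for slices. A gene passed at an adjusted p under 0.05. The standard error is the log2 fold change over the square root of F. CPM was scaled by TMM, and TPM used annotated exon length. The difference of the 2 LPS effects was fitted over both in vivo tables joined by gene. Depths of 5973364 to 14216034 counts limit precision for genes of few counts.

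Genes named were the 5 highest and 5 lowest passing nuclear subunits of each comparison, the mitochondrial subunits, the listed isoforms, and the extremes of each pathway list. Other genes, such as the core subunits of complex I, Sdhb, Atp5c1, the promoter regulators, the symbol matches and the neighbouring genes, were named after their values were seen. Members and lists were chosen with earlier results of these data known. Alternatives were DESeq2 1.42.0, its size factors, total counts, no filter, mitochondrial rows left out, other blocks, title codes apart and leaving out single samples. Scripts were tested on simulated data (Python 3.11.15, pandas 2.3.3, numpy 2.4.6, matplotlib 3.10.9). The values of 1 gene are not reported here.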

Additional observations from a re-analysis of the deposited data

Results flagged for a closer look

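Of 148 groups of 4 to 10 samples examined for a sample far from the others, 4 had one, and chance gives about 1 in 20. Uqcrh was at 120 CPM in untreated brain replicate 1 beside 124 CPM in each of the others. Atp5j2 was at 54.6 CPM in untreated brain replicate 3 beside 56.9 to 57.2 CPM. In brain tissue after LPS, mt-Nd4 was at 5197 CPM in replicate 2 beside 5016 to 5044 CPM. Atp5g1 was at 157 CPM in GM-CSF replicate 5 beside 109 to 133 CPM.

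The test of the difference between LPS effects picked out 54 nuclear and 12 mitochondrial subunits with a larger effect in adult microglia than in brain tissue.

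Outside the genes compared, the chromosome 1 copies of mitochondrial genes took a median of 0.0953% of the counts in adult microglia after PBS, 0.146% after LPS, 1.49% in untreated brain tissue and 1.38% in brain tissue after LPS. Ndufb1-ps, left out because it is annotated as not coding, had a median of 83.2 CPM in slice microglia in medium, 128 CPM after TNF and 129 CPM after GM-CSF.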

How the results depend on the processing

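The counts of nuclear subunits that rose after TNF, after GM-CSF and in adult microglia, and those of mitochondrial subunits in adult microglia, stayed within 1.5 times under every alternative run except 14 and 14 within codes 2A and 2B for the slice comparisons, where the cause was not tested. Nuclear subunits that fell after TNF (3) were 9 by total counts, 1 without the code block, 1 within 1A and 1B and 0 within 2A and 2B, and after GM-CSF (3) they were 1 by total counts, 1 within 1A and 1B and 0 within 2A and 2B. Mitochondrial subunits that fell after TNF (4) were 0 without the code block, 2 within 1A and 1B and 1 within 2A and 2B. After GM-CSF the 1 that fell was 0 by total counts, without the code block and within 1A and 1B, and the 1 that rose was 0 without the code block and within 2A and 2B.

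Between TNF and GM-CSF, nuclear subunits higher (9) were 1 by total counts, 2 without the filter, 4 without the code block, 3 within 1A and 1B and 1 within 2A and 2B; those lower (7) were 40 by total counts, 3 within 1A and 1B and 3 within 2A and 2B. Mitochondrial subunits higher (1) were 0 by total counts, without the code block and within 2A and 2B, and those lower (2) were 6 by total counts and 0 without the code block. The median of nuclear subunits (0.0088) was -0.16 by total counts, -0.026 without the filter, -0.0062 without the code block and -0.02 within 2A and 2B. In the difference of LPS effects, nuclear subunits smaller in microglia (2) were 1 by total counts and 0 without the filter. The cause of these shifts was not tested.

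Replicate numbers did not pair the samples (correlations of -0.064 to 0.037 in adult microglia, -0.081 to 0.038 in brain tissue and -0.059 to 0.21 in slice microglia). With a replicate block, adult microglia had 49 nuclear subunits higher, 2 lower and 12 mitochondrial higher, and brain tissue had 8 nuclear and 6 mitochondrial lower. With the replicate block in place of the title code, TNF gave 38 nuclear higher, 1 lower and 7 mitochondrial lower; GM-CSF gave 43 nuclear higher and 1 lower; and between them 5 nuclear were higher, 8 lower, 0 mitochondrial higher and 6 lower, with a nuclear median of -0.036.

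Sets of neighbouring title numbers, formed after seeing the data, were not established as pairs either: deviations from the group means correlated at -0.048 to 0.21 within 9 sets of TNF and medium, 0.013 to 0.16 within 8 of GM-CSF and medium and 0.061 to 0.20 within 9 of TNF and GM-CSF. With these sets as the block, TNF gave 42 nuclear higher, 1 lower and 4 mitochondrial lower; GM-CSF gave 40 nuclear higher, 2 lower, 1 mitochondrial higher and 3 lower; and the nuclear median between them was -0.0086.

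Leaving out 1 sample at a time gave 46 to 50 nuclear higher, 0 to 3 lower and 12 to 12 mitochondrial higher in adult microglia, 1 to 14 nuclear and 4 to 8 mitochondrial lower in brain tissue, and 47 to 54 nuclear larger, 0 to 2 smaller and 12 to 12 mitochondrial larger in the difference. No named gene that passed changed sign. DESeq2 gave 51 nuclear higher and 4 lower after TNF, 50 and 2 in adult microglia and 0 and 9 in brain tissue. Among the named genes that had passed, adding the copies, chosen after seeing the data, changed none of the directions. Genes of few counts, such as Cox4i2, Ndufa4l2 and Atp5l, are limited by depth.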
